A study of Mus musculus with 8 samples.

Results

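Tumours of the Hepa1-6 line, hepatoma cells of the mouse, hold fibroblasts, which were chosen by the measured values of their collagen genes from a pooled single-cell table. A cell was taken as a fibroblast where the mean of its Col1a1, Col1a2 and Col3a1 values was at least 1.5 on the natural log scale, and where the means of the T-cell genes Cd3g and Trbc2 and of the myeloid genes Tyrobp and Fcer1g were both below 0.5. In all, 754 of 53528 cells met this rule, or 1.41% (95% exact Clopper-Pearson interval 1.31% to 1.51%, counting error only). They were set against 31129 hepatoma cells, which had a mean of Krt8, Afp and Alb of at least 1, the same immune limits and a collagen mean below 0.5. Because measured collagen, hepatoma, T-cell and myeloid genes chose both classes, every difference between them is a description with no test.

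The labels give 4 groups: tumours of wild-type cells or of cells with Soat1 edited (knockout in the titles, knockdown in the genotype field), in animals injected intraperitoneally with PBS or with an antibody against PD-1. Soat1 codes for an enzyme that esterifies cholesterol, and PD-1 is an inhibitory receptor of T cells. The tumours were dissociated with enzymes, red cells were lysed, and 3′ transcripts were counted by unique molecular identifiers (UMIs) in droplets. The cells carry a set number from 1 to 6 that the labels tie to no group, so the table was treated as 1 sample, no genotype or treatment was compared, and Soat1 itself was not analysed here. Hepa1-6 is 1 cell line, so the hepatoma cells share a single origin. Strain, sex and age of the mice that carried the tumours are not given in the sources used here.

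Fibroblasts make and remodel the collagen-rich matrix of a tissue. In tumours they are commonly described as matrix-producing cells, as contractile cells with smooth-muscle actin, or as cells rich in cytokines and chemokines, and pericytes, the mural cells of small vessels, share many of their genes. In the liver, stellate cells and portal fibroblasts are the usual sources of scar-forming cells. Cells that express Pi16 and Dpt have been described in the outer layer of vessels and in many other tissues.

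Fibroblasts were found in all 6 sets, but unevenly. Set 3 held 312 of them and set 2 held 50. By set number, fibroblasts made up 0.790%, 0.661%, 2.64%, 1.59%, 1.05% and 1.23% of the cells, and the interval of set 3 (2.36% to 2.95%) lay above those of the other 5. Without set 3 the pooled share was 1.06%. The share of hepatoma cells ran from 39.0% to 72.9% over the same sets. Counted per 100 cells that passed the immune limits, fibroblasts ran from 1.04 to 3.82 with a median of 2.17, and set 4 (3.68) was then close to set 3. How well the dissociation released fibroblasts was not measured, so a share of cells is not a share of the tumour.

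**Figure D1:**
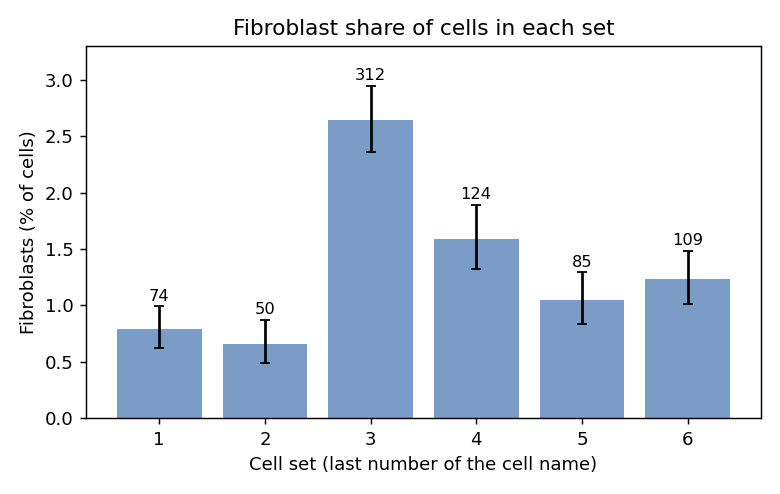
Share of cells that met the fibroblast rule in each of the 6 cell sets (percent, bars from 0), with 95% exact binomial intervals and the number of fibroblasts above each bar. Set 3 stands highest at 2.64% and set 2 lowest at 0.661%.

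Few cells lay near the limit of the rule. Only 12 cells had a collagen mean within 0.25 above the limit of 1.5 and 10 had one within 0.25 below it, whereas 622 of the 754 were at 3 or above. The mean value of Dcn, which codes for the collagen-binding proteoglycan decorin and was not part of the rule, was 0.83 in the cells just inside the limit, 0.54 in those just outside and 2.91 in the cells at 3 or above. A further 110 cells had enough collagen but failed an immune limit, and their mean Dcn value was 2.75.

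In set 1, where whole UMI counts could be recovered, 74 fibroblasts held 614733 UMIs, with a median of 6771.5 per cell (1044 to 40274). The 6795 hepatoma cells left after doublet calling had a median of 16620 and the 1230 T cells a median of 4733. None of the 74 fibroblasts was called a doublet. Levels below are counts per 1e+06 UMIs of a class (CPM) in set 1 unless a natural log value is named, and a level of 0 in fibroblasts allows up to 4.88 CPM (3 UMIs).

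The collagen genes of the rule stood far apart. Col1a1 was at 6245 CPM in fibroblasts, 2.95 in hepatoma cells and 3.64 in T cells. Col1a2 was at 11098 and 3.56 CPM in the first and second of these classes, and Col3a1 at 8317 and 2.94. The means of the 6 sets on the natural log scale were 3.28 to 3.92 for Col1a1, against 0.01 to 0.03 in hepatoma cells.

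Hepatoma transcripts were found in the fibroblasts at about the level of T cells. Afp was at 613 CPM in fibroblasts, 492 in T cells and 4977 in hepatoma cells. Alb was at 543, 416 and 3534 CPM in the same order, and Krt8 at 198, 158 and 1160. Of all fibroblasts, 83.2% had a mean of these genes of at least 1, the limit that defines hepatoma cells, and the share ran from 72% to 88.1% over the sets. Of 13 other hepatoma markers in the table, 10 were at least 4-fold lower in fibroblasts, and the summed level of the list was 1858 CPM in fibroblasts, 1241 in T cells and 9333 in hepatoma cells. The part of free RNA in these levels was not tested. Every ratio below between fibroblasts and hepatoma cells is therefore between a class and one whose transcripts are also found in it, and a low fibroblast level of a hepatoma gene is not read as expression.

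Fibroblasts differed from hepatoma cells by at least 4-fold on the log2(CPM + 1) scale in many of the 2000 genes. With at least 20 UMIs in the higher class, 340 genes (17%) were higher in fibroblasts and 276 (13.8%) were lower, or 220 lower with genes without a UMI put at the floor. Other settings moved the lower count to between 100 (pseudocount of 10 CPM) and 553 (0.1 CPM). The higher count fell to 77 when a hepatoma marker mean below 1 was asked of fibroblasts and to 116 with every cell thinned to 1000 UMIs. On the deposited natural log scale, 144 genes (7.2%) were higher by at least 0.5 in each of the 6 sets and 70 (3.5%) were lower. Over the 1990 genes outside the rule the median log2 ratio was -0.30, or 0 when the 512 genes without a UMI in fibroblasts were put at their floor. These shares are the background for the counts of the gene lists.

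Collagens other than those of the rule followed the same pattern. Of 15 in the table, 13 were at least 4-fold higher in fibroblasts and none lower, with a median log2 ratio of 7.66. Col5a2, a chain of type V collagen, which starts fibrils of type I, was at 1033 CPM against 1.29. Col6a3, a chain of the microfibrillar type VI collagen, was at 1179 CPM against 1.90, and Col6a1 at 597 against 0.665. The network collagen gene Col4a1, a basement membrane chain, was at 547 CPM against 3.39. Col12a1 and Col14a1, which code for collagens on the surface of fibrils, were at 592 and 885 CPM against 0.922 and 2.56. The 2 members not counted were Col18a1, at 81.3 CPM against 56.2, and Col7a1, with 2 UMIs in fibroblasts.

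The enzymes and chaperones that handle collagen were also high. Of 11 genes of collagen processing, 8 were at least 4-fold higher (median log2 ratio 7.29). Serpinh1, the collagen chaperone HSP47, had a UMI in all 74 fibroblasts and was at 2933 CPM against 3.85. Lox, which cross-links collagen and elastin, was 2047-fold higher (1611 to 2633) at 1025 CPM against 0.501. Its relative Loxl1 was at 550 CPM against 0.698, and Fkbp10, a chaperone of the endoplasmic reticulum, at 333 against 0.382. Ctsk, a protease that degrades collagen, was at 272 CPM against 0.349. P4ha2, Pcolce and Pcolce2 stayed below the 4-fold limit. Pcolce, an enhancer of procollagen cleavage, was at 330 CPM in fibroblasts and 168 in hepatoma cells.

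Of 39 matrix proteoglycans and glycoproteins, 34 were at least 4-fold higher and none lower (median log2 ratio 6.62). Postn, which codes for the matricellular protein periostin, had the highest ratio of the genes outside the rule on the log2(CPM + 1) scale, at 3138 CPM against 1.32, a ratio of 2382 (2058 to 2769). Its mean over the sets ran from 2.32 through a median of 2.69 to 3.22 natural log units in fibroblasts, and no hepatoma mean exceeded 0.013. The set means of the 2 classes did not overlap. By cell, 93.2% of set 1 fibroblasts had a UMI of Postn. Fbn1, the main fibrillin of microfibrils, had set means of 2.60 to 3.27 and was at 1944 CPM against 1.95. Dpt, which codes for dermatopontin, was at 1449 CPM against 0.764, Fbln2 at 1422 against 0.889 and the calcification inhibitor Mgp at 1807 against 1.53. Sparc, a collagen-binding protein, was at 9931 CPM, but hepatoma cells had 209.8 CPM too and the ratio was 47.3 (46.1 to 48.7). Dcn was at 1581 CPM against 20.1. Fn1 and Thbs1 were not specific in this way: fibronectin was at 5985 CPM against 2278, a ratio of 2.63 (2.54 to 2.71), and Thbs1 at 278 against 298.

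**Figure D2:**
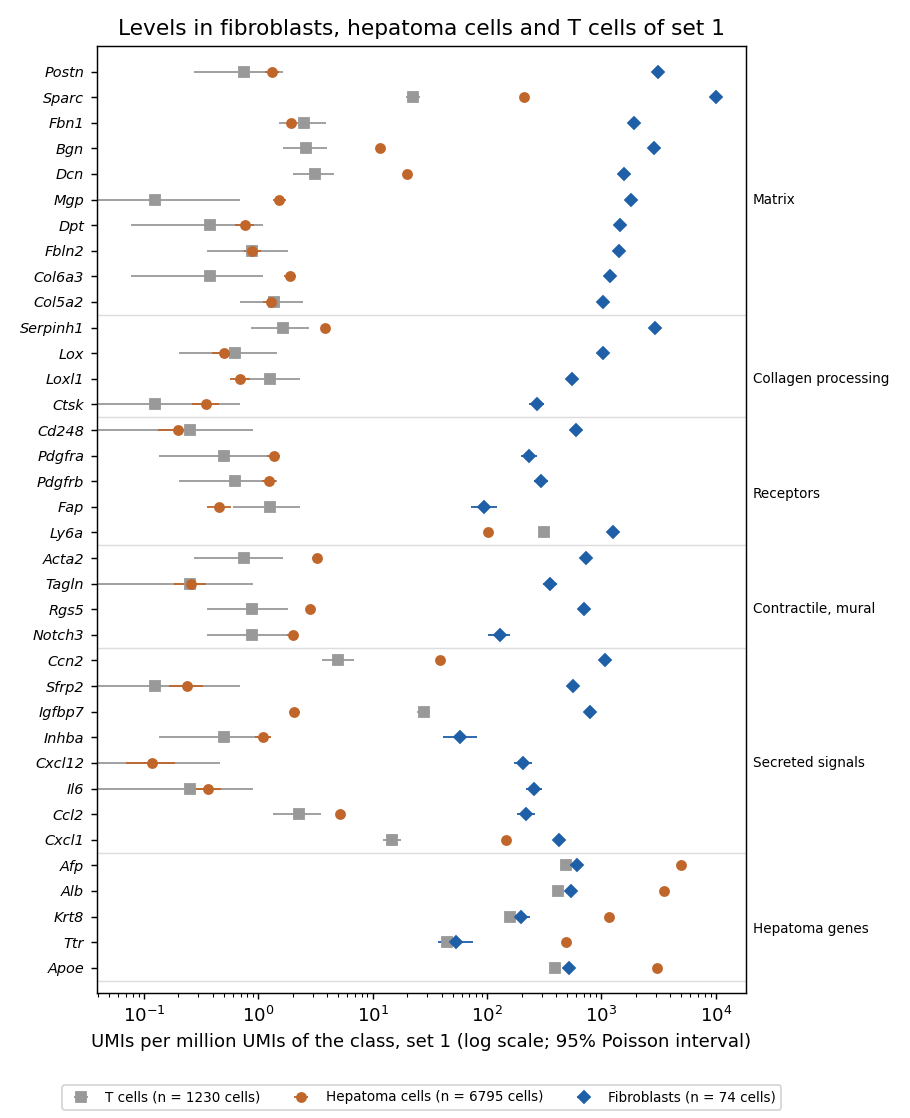
Levels of selected genes in fibroblasts (blue diamonds, 74 cells), hepatoma cells (orange circles, 6795 cells) and T cells (grey squares, 1230 cells) of set 1, in CPM on a log axis with 95% Poisson intervals. Matrix, processing and receptor genes stand to the right in fibroblasts, while Afp, Alb, Krt8, Ttr and Apoe lie close to the T-cell level.

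The remaining genes among the 25 with the highest ratios were mostly secreted or surface proteins. Fstl1, a secreted glycoprotein of the follistatin family, was at 5528 CPM against 7.93 and had a UMI in 98.6% of the fibroblasts. Aspn, a small leucine-rich proteoglycan, was at 961 CPM against 0.507. Mfap5, Eln and Thbs2, of elastic fibres and the thrombospondin family, were at 800, 799 and 623 CPM, with 0.481, 0.573 and 0.520 in hepatoma cells. Serpinf1, which codes for the anti-angiogenic factor PEDF, was at 891 CPM against 0.553. Cthrc1, a secreted protein found in remodelling tissue, was at 534 CPM against 0.270. Prss23, a serine protease, was at 756 CPM against 0.586. Igfbp5, a binding protein of insulin-like growth factors, was at 525 CPM against 0.25, but only 24.3% of the fibroblasts had a UMI of it.

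Receptors and surface proteins of fibroblasts were high in 10 of 12 genes, with a median log2 ratio of 6.41. Cd248, or endosialin, had the largest ratio among those 25 genes at 3029 (2086 to 4554), with 599 CPM against 0.198. The receptors for platelet-derived growth factor, Pdgfra and Pdgfrb, were at 233 and 296 CPM, against 1.36 and 1.24 in hepatoma cells. Fap, the surface protease often used to mark tumour fibroblasts, was at 94.3 CPM against 0.454. Ly6a, the stem cell antigen Sca-1, was at 1262 CPM against 101.5, and T cells had 314. Thy1 was at 333 CPM against 3.59, while T cells, which also carry it, had 461. The other 2, Ednrb and Nt5e, had 0 and 3 UMIs.

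Of 10 mesenchymal transcription factors, 7 were higher, with a median log2 ratio of 5.61. Twist1 was at 174 CPM in fibroblasts and 0.0593 in hepatoma cells, Prrx1 at 303 and 0.487, and Snai2 at 65.1 and 0.0132. Their set means spanned narrow ranges, from 0.63 to 0.87 natural log units for Twist1 and from 0.95 to 1.09 for Prrx1. Zeb2 was at 198 CPM against 6.31, but myeloid cells had 401. Sox9 was the member with the lowest ratio, at 71.6 CPM in fibroblasts and 220 in hepatoma cells, below the limit of the call. Among markers of hepatic stellate cells and portal fibroblasts, Nes was at 35.8 CPM against 0.310, and the mesothelial and portal marker Msln had 1 UMI.

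Growth factors and their binding proteins were mixed, with 19 of 32 genes higher and 3 lower (median log2 ratio 4.89). Ccn2, the connective tissue growth factor, was at 1075 CPM against 38.9, and Ccn1 at 1497 against 275. Sfrp2, which binds Wnt proteins, was at 561 CPM against 0.237. Igfbp7 was at 797 CPM against 2.06, and Igf1 at 205 against 1.38. Inhba, the activin A subunit, was at 58.6 CPM against 1.10, with a UMI in 13.5% of the fibroblasts. The Wnt ligands Wnt5a and Wnt2 were at 68.3 and 63.4 CPM against 0.119 and 0.25. The 3 lower genes were Igf2, with no UMI in fibroblasts and 7.39 CPM in hepatoma cells, Tgfbi, at 71.6 against 571, and Bmp4, at 11.4 against 82.8. Against the fibroblast floor of 4.88 CPM, Igf2 was at least 1.51-fold lower, so its call rests on the pseudocount. Vegfa, a signal for vessel growth, was at 132 CPM in fibroblasts and 255 in hepatoma cells.

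Matrix proteases and their inhibitors were higher in 14 of 21 genes (median log2 ratio 3.67). Mmp2, a gelatinase, was at 329 CPM against 0.231 and had a UMI in 58.1% of the fibroblasts. Mmp3, or stromelysin 1, was at 69.9 CPM against 0.0856, in 16.2% of them. Timp1, Timp2 and Timp3, inhibitors of these enzymes, were at 830, 846 and 548 CPM against 34.0, 206 and 93.9. The other collagenases and gelatinases of the list were low: Mmp9 had 7 UMIs, Mmp13 had 6 and Mmp8 had none, and Mmp13 and Mmp9 were at 807 and 77.4 CPM in myeloid cells.

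Genes listed as inflammatory were mixed. Of 28 listed genes, 16 were higher and 1, Lcn2, was lower at 6.51 CPM against 83.6 (median log2 ratio 3.51). The 16 included Pi16, Clec3b, Cd34 and Ly6c1, which are not cytokines or chemokines and are described again below. With every cell thinned to 1000 UMIs the list median was 1.72. The cytokine Il6 was at 257 CPM (218 to 300.4) in fibroblasts, 0.362 in hepatoma cells and 5.75 in myeloid cells. Its set means were 0.26 at the lowest, 0.54 at the median and 0.69 at the highest, and only 35.1% of the set 1 fibroblasts had a UMI. Cxcl12, which recruits cells bearing CXCR4, was at 207 CPM against 0.119, and Ccl11, which draws eosinophils, at 233 against 0.0856. No T cell or myeloid UMI was found for either gene. Ccl2 and Ccl7, which attract monocytes, were at 220 and 319 CPM against 5.2 and 4.66, but myeloid cells had 489.5 and 327. Cxcl1 was at 429 CPM and C4b, a complement component, at 807, with 146 and 241 in hepatoma cells, which kept both below the 4-fold limit. Cxcl2 and Cxcl5 were at 109 and 63.4 CPM, against 63.0 and 67.8. Ptgs2 and Has1, which make prostaglandins and hyaluronan, were at 132 and 106 CPM against 7.70 and 0.672. Saa3 was at 92.7 CPM, but only 8.11% of the fibroblasts had a UMI of it.

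Promoters of these genes were read for a motif that the NF-kB family binds, GGGA and TTTCC with any 1 base between them, on either strand, since this family acts on inflammatory genes. RefSeq promoters (GRCm38.p6, 250 bases before the start) matched 9 of the 13 cytokine and chemokine genes of the list, and 3 of the 9 held the motif, against 0.356% of 32851 promoters. A motif match is a description of letters, not a bound site. The 150 bases before the start are shown for Il6 (chr5:30012964-30013113, plus strand), the most restricted of the 3 to fibroblasts, and for Cxcl1 (chr5:90891095-90891244, plus strand), with the motif in capitals.
Il6: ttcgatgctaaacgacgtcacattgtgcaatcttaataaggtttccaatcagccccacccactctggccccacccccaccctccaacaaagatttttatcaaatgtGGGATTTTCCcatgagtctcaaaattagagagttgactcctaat
Cxcl1: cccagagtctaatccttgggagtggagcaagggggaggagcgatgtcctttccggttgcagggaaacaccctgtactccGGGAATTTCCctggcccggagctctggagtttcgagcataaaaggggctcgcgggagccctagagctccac
The motif starts 44 bases before the start of Il6 and 71 before that of Cxcl1. The third gene, Cxcl2, holds it 97 bases before its start. Of these 3 genes, Il6 alone passed the 4-fold limit.

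Class II antigen presentation genes, used to mark antigen-presenting fibroblasts, were not raised. None of 5 was higher and 3 were at least 4-fold lower (median log2 ratio -2.80). Cd74, the invariant chain, was at 42.3 CPM in fibroblasts, 82.4 in T cells, 384 in hepatoma cells and 2950 in myeloid cells. H2-Eb1 at 24.4 against 176. The set means of Cd74 ran from 0.22 to 0.37 natural log units in fibroblasts and from 1.21 to 1.37 in hepatoma cells.

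Markers of other cell types were not all low in the fibroblasts. None of 16 leukocyte markers was called in either direction, and their summed level was 197 CPM in fibroblasts and 6382 in T cells. Fibroblasts and hepatoma cells were both chosen for low T-cell and myeloid genes, and T cells for high Cd3g and Trbc2. The rule thus set this outcome in part, and it is no separate measure of purity. Ptprc, the pan-leukocyte gene, had 4 UMIs and Lyz2 had 2. Of 8 endothelial markers, Fabp4 and Flt1 were called, at 190 and 86.2 CPM against 19.6 and 3.77, whereas the defining genes Cdh5 and Robo4 had 0 UMIs and Kdr and Plvap 1 each. The summed level of the 8 was 320 CPM in fibroblasts, 28.2 in hepatoma cells and 10.7 in T cells, with a median log2 ratio of 1.56. Keratin and adipocyte genes of other stromal lineages gave no higher call and 1 lower, Krt19, at 24.4 CPM against 186. Among hepatoma markers the 2 that were higher in fibroblasts were H19 and Dlk1, both fetal and imprinted genes. H19 was at 138 CPM against 0.0593.

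Calls varied among the lists of general cell programmes, against 17% higher and 13.8% lower over all 2000 genes. None of 20 cell-cycle genes was called. Top2a was at 63.4 CPM in fibroblasts, 221 in hepatoma cells and 562 in T cells, and Mki67 at 55.3, 115 and 308. Of 14 interferon response genes, 4 were higher (Cxcl9, Ifit1, Ifi205 and Isg15), with a median log2 ratio of 0.52. Ifi205 was at 153 CPM against 1.80. Isg15 was at 140 CPM against 21.5. Of 12 hypoxia genes, Lox and Adm were higher and Ndrg1 and Car9 lower, and the metallothionein gene Mt2 was at 1002 CPM against 882. Of 6 immediate early genes only the heat shock genes Hspa1a and Hspa1b were higher, at 335 and 333 CPM against 7.36 and 6.82. T cells had 489 and 917 CPM of these genes. Egr1 was at 960 CPM against 649. Of the 7 measured genes listed for sterol synthesis, which were chosen because Soat1 acts on cholesterol, 5 were lower and none higher (median log2 ratio -2.11). One of the 5 was Apoe, an apolipoprotein and not an enzyme of sterol synthesis, at 516 CPM against 3089. The lower genes also included 3 enzymes of the pathway: Idi1 was at 16.3 CPM against 71.2, Msmo1 at 21.1 against 94.8 and Sqle at 26.0 against 180.5. Each of these 3 enzymes had under 20 UMIs in the fibroblasts. Hmgcs1, at 65.1 CPM against 204, and Fdps, at 17.9 against 60.3, were not called.

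The 10 genes with the lowest ratios were hepatoma genes of modest level. Mlxipl, a transcription factor that responds to glucose, had no UMI in fibroblasts and 37.6 CPM in hepatoma cells, which makes it at least 7.70-fold lower. For Pnma5, Sp5, Epha7, Tmed6, Vnn1, Gm29966 and Serpinb11, also without a UMI, the bounds ran from at least 4.11-fold to at least 7.58-fold lower. Ffar2, a receptor for short-chain fatty acids, had 2 UMIs and was 32.3-fold lower (8.94 to 267). Car2, a carbonic anhydrase, also had 2 UMIs and was 24.4-fold lower (6.74 to 201). Trf, which codes for transferrin and is abundant in hepatoma cells, had a smaller ratio and was 5.35-fold lower (4.85 to 5.90).

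Contractile genes were high in the class as a whole but were detected in only a part of its cells. Of 7 listed genes, 6 were at least 4-fold higher (median log2 ratio 6.52). Acta2, smooth-muscle actin, was at 726 CPM against 3.23, Tagln at 356 against 0.257 and Myl9, a myosin light chain, at 122 against 0.336. Acta2 had a UMI in 41.9% of the fibroblasts and Myl9 in 21.6%. Pericyte and mural markers were higher in 10 of 13 cases (median log2 ratio 5.36). The calls of both lists are of set 1 alone. By at least 0.5 natural log units in each of the 6 sets, 1 of the 7 contractile genes and 0 of the 13 mural markers were higher. Over all 2000 genes that share was 7.2%. Rgs5, a pericyte gene, was at 708 CPM against 2.86 and had a UMI in 23.0% of the cells. Notch3, a receptor of mural cells, was at 129 CPM against 2.00, and Cspg4 at 99.2 against 0.283.

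Dividing the fibroblasts at a mean of 1.5 over Acta2, Tagln and Myl9 gave 84 contractile cells of 754, or 11.1% (8.98% to 13.6%). The division is a range on a score, and 33 cells lay within 0.25 of it. By set number the contractile cells were 16, 8, 28, 23, 3 and 6, which made 21.6%, 16%, 8.97%, 18.5%, 3.53% and 5.50% of each set's fibroblasts. The set with the most fibroblasts, set 3, was thus neither the highest nor the lowest. Median hepatoma marker scores were 0.43 natural log units in the contractile cells and 0.47 in the rest. Leukocyte marker scores had medians of 0.0049 and 0. Endothelial marker scores had medians of 0.18 and 0.0016, and Fabp4 was at 749 CPM in contractile against 27.3 CPM in other fibroblasts of set 1. Pericyte and mural marker scores had medians of 0.51 and 0.11, and 23 of the 84 contractile cells had an Rgs5 value of at least 1.5. The cell-cycle score had medians of 0.19 and 0.098. The part of endothelial and mural cells in the contractile class was not tested.

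Outside the dividing genes, 9 genes were higher in contractile than in other fibroblasts by at least 0.5 natural log units in each of the 6 sets, and 42 were lower. Of all 2000 genes, including the dividing ones, 0.6% were higher and 2.1% lower by that limit. The 9 were Tpm2, Mylk, Tmsb4x, Col15a1, Mcam, Gng11, Col6a3, Col8a1 and Itga1. Tpm2, a tropomyosin of smooth muscle, differed by 1.85 to 2.27 over the sets and was at 1463 CPM in 16 contractile cells of set 1 and 177 in the other 58. Mylk, the myosin light chain kinase, differed by 0.87 to 1.43. Mcam, a surface marker of mural cells, was at 728 CPM against 69.3, a ratio of 10.5 (7.02 to 16.1). Col15a1, a basement membrane collagen, was at 958 CPM against 185. The 2 groups of set 1 had median depths of 7856.5 and 6666 UMIs. Postn was not among the genes called, at 2911 CPM in contractile and 3204 in other cells, although its difference was between 0.42 and 0.71 in every set. Col1a1 was at 6370 and 6208 CPM.

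Genes lower in contractile fibroblasts included matrix, complement and surface genes. Dcn differed by -2.85 to -1.81 natural log units over the sets and was at 267 CPM in contractile cells of set 1 against 1964 in the others. Dpt was at 180 CPM against 1819, Pi16, a peptidase inhibitor, at 115 against 1185, and Clec3b, or tetranectin, at 28.8 against 805. The complement component C4b was at 187 CPM against 987. The surface genes Cd34, Ly6c1 and Ly6a were at 28.8, 7.21 and 108 CPM against 454, 548 and 1599. Pdgfra was at 64.9 CPM against 282, whereas Pdgfrb was at 663 against 189. The chemokine Cxcl1 was at 57.7 CPM against 538. Il6 was at 151 CPM against 288, but its set differences ran from -0.74 to 0.05, so it was not called. Cxcl12 had differences from -0.92 to 0.46.

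**Figure D3:**
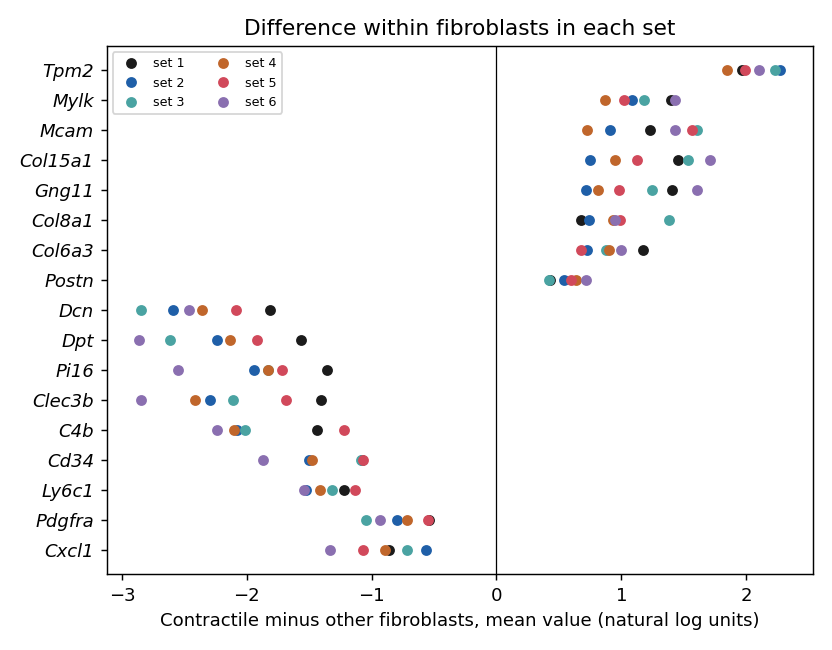
Difference of mean values between contractile and other fibroblasts (natural log units) for 17 genes, with 1 point for each of the 6 sets. Points right of the line are higher in contractile cells, as for Tpm2 at 1.85 to 2.27, and points left of it lower, as for Dcn at -2.85 to -1.81.

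The promoters of contractile genes were read for the CArG box, which serum response factor binds in smooth-muscle genes, on both strands and with 1 mismatch allowed in its 6 inner bases. RefSeq promoters (GRCm38.p6) matched 5 of the 7 contractile genes, and 2 of them, Acta2 and Myl9, held a box in the 250 bases before the start, against 8.59% of 32851 promoters. With no mismatch allowed the figures were 1 of 5 and 1.47%. The 150 bases before the start of these 2 genes, which divide the fibroblasts above, are shown for Acta2 (chr19:34255374-34255523, minus strand) and Myl9 (chr2:156775314-156775463, plus strand), with boxes in capitals.
Acta2: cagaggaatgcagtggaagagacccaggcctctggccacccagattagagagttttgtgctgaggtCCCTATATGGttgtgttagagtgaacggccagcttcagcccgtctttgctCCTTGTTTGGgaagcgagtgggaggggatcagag
Myl9: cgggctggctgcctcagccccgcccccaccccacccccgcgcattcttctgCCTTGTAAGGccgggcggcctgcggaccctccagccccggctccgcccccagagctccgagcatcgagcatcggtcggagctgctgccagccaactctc
The boxes of Acta2 begin 84 and 34 bases before the start. Those of Myl9 begin 161 and 99 bases before it, the first of them outside the stretch shown. Tpm2 and Mylk, which were higher in contractile cells in all 6 sets, held none in this window.

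Further scores placed most fibroblasts outside the contractile range. Both were chosen after the values had been seen. A mean of Pi16, Clec3b and Dpt of at least 1.5 was found in 551 of the 754 fibroblasts (73.1%), from 44.6% in set 1 to 87.2% in set 6. An Rgs5 value of at least 1.5 was found in 51 cells (6.76%), from 0.917% in set 6 to 21.6% in set 1. Only 3 cells were both contractile and high in the Pi16 group, and 1 was high in Rgs5 and in the Pi16 group, while 23 of the 51 Rgs5 cells were contractile. Pi16, Clec3b and Dpt were themselves among the genes called lower in contractile cells in all 6 sets. The small overlap with contractile cells therefore follows from the choice of genes and is not a separate result. None of these limits was met by 95 cells (12.6%). Near the limits lay 57 cells for the Pi16 group and 5 for Rgs5.

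**Figure D4:**
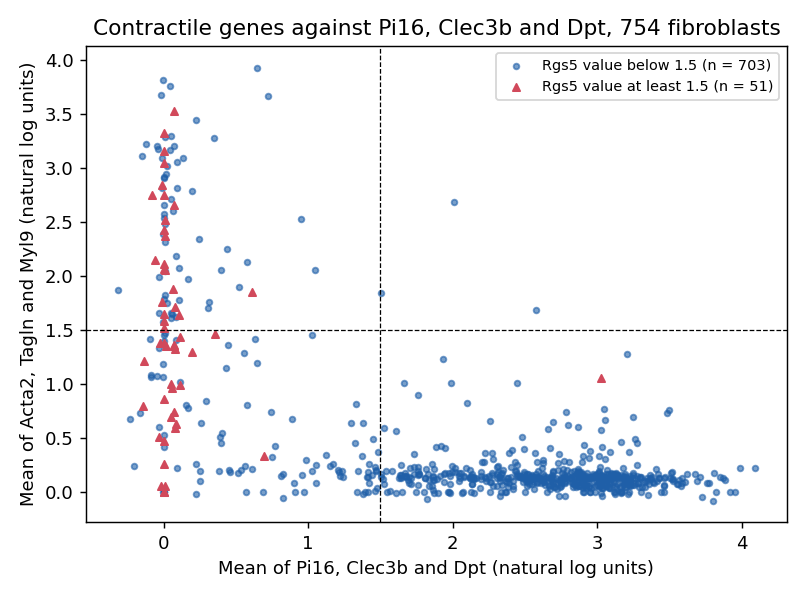
Each fibroblast of all 6 sets by the mean of Pi16, Clec3b and Dpt (horizontal) and the mean of Acta2, Tagln and Myl9 (vertical), both in natural log units, with red triangles for the 51 cells with an Rgs5 value of at least 1.5 and dashed lines at 1.5. Only 3 cells lie in the upper right field, and the genes of the horizontal axis were among those called lower in contractile cells.

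These groups also differed in genes that the scores did not use. Dcn and Mcam were among the genes called between contractile and other fibroblasts, and the groups were chosen after the values had been seen. Contrasts of Dcn and Mcam are thus set in part by that choice and are no separate result. In the 551 cells of the Pi16 group the mean Pdgfra value was 1.2 natural log units and that of Pdgfrb 0.43. In the 28 Rgs5 cells that were not contractile, Pdgfra was at 0.078 and Pdgfrb at 2.35. Dcn was at 0.55 in these 28 cells and at 0.076 in the 23 contractile cells with Rgs5. It was at 0.64 in the 61 contractile cells without Rgs5 and at 3.35 in the Pi16 group. The Rgs5 cells met the collagen rule but were low in this fibroblast gene, and whether they are pericytes was not tested. Notch3 was at 1.87 in the 23 contractile cells with Rgs5, at 0.52 in the 61 without it and at 0.057 in the Pi16 group. Mcam followed the same order at 2.44, 1.06 and 0.055. Lox was at -0.029 in the Rgs5 cells outside the contractile range, against 1.59 in the Pi16 group and 1.55 in contractile cells without Rgs5. Postn was above 2.3 in each of these groups. The median pericyte marker score was 1.3 in the Rgs5 cells, a score that holds Rgs5 itself, and 0.10 in the Pi16 group. In set 1 these groups rest on 33 cells of the Pi16 group and 16 Rgs5 cells.

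Set means of the fibroblasts varied in the same genes. Clec3b ran from 1.22 in set 1 to 2.55 in set 6, Dcn from 1.99 to 3.10 and Pi16 from 1.27 to 2.32, again with set 1 lowest and set 6 highest. Mgp ran the other way, from 0.65 in set 5 to 1.64 in set 1, as did Acta2, from 0.33 in set 5 to 1.00 in set 1, and Rgs5, from 0.24 in set 6 to 0.80 in set 1. Serpinh1 varied little, from 2.98 to 3.26. Sets 2 to 6 hold values below 0 from a step that no label records, so set 1 differs from the others in scale as well, and its part in these differences was not tested.

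**Figure D5:**
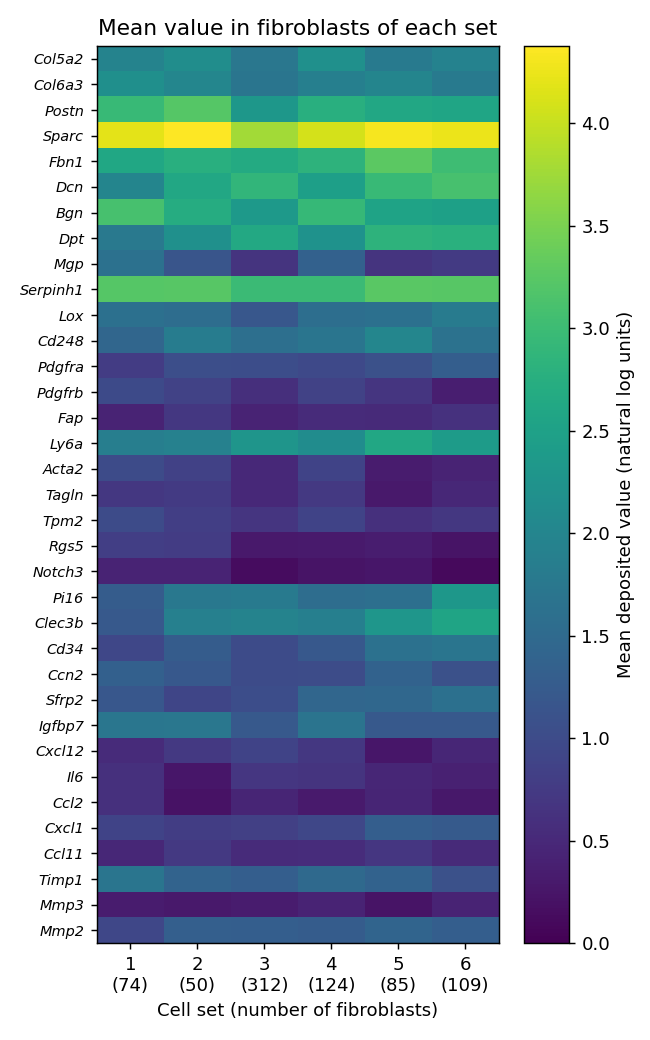
Mean deposited value (natural log units, colour) of 35 genes in the fibroblasts of each of the 6 sets, with the number of fibroblasts in brackets. Clec3b and Pi16 are brightest in set 6 and Rgs5 and Mgp in set 1, while Serpinh1 stays between 2.98 and 3.26.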

How the data were processed

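Per the labels' protocols, dissociated tumours gave 3′ single-cell libraries on the DNBelab C4 system. STAR 2.7.2b aligned the reads, per the submitters' processing notes, which name GRCh38 and mm10, and the build behind the table is not given in the sources used here. UMIs were counted with PISA and cells chosen with barcodeRanks, per the labels' protocols. The deposited values of 2000 genes in 53528 cells are on the natural log scale. The authors' values in set 1 equal the natural log of 1 plus UMIs per 10000. In sets 2 to 6 every cell also had values below 0, from a step that no label records.

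In set 1 the UMI total of each cell was solved from its values, which worked for 100% of 9370 cells and made 100% of the nonzero values whole within 0.01. The totals had a median of 11098.5 UMIs, and the 2000 genes held 15% of them. Scrublet (scanpy 1.11.5) called 91 of 9370 cells (0.971%) doublets, which entered the shares but no set 1 level. Other sets had no counts for the caller. UMIs were summed by class and divided by the class total, with exact Poisson intervals for levels and exact conditional intervals for ratios at 95%, counting error only. T cells and myeloid cells were cells with a mean of at least 1 for their genes and below 0.5 for the other class. Calls used log2 of CPM plus 1. Shares of cells with a UMI carry no depth correction. Cell names are running numbers, so barcodes shared between sets were not counted. Cells are not replicates, so no p-value was computed. The ratio and interval steps were tested on simulated data.

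The 8 entries of the labels form 4 groups, each with a cDNA and an oligo entry. The members and the 21 gene lists were chosen with earlier results of these data known. Named genes were the 25 with the highest and 10 with the lowest ratio outside the rule that kept their direction in all 6 sets, the genes of the rule, and list members past 4-fold with up to 4 further members of each list. Genes named outside this rule (Fn1, Cxcl2, Sox9, Mmp9 and others below 4-fold, and those of the contractile and Pi16 scores) were chosen after their values were seen. Alternatives covered the limits of the rule, the pseudocount, doublets, depth and the removal of each set.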

Additional observations from a re-analysis of the deposited data

How the results depend on the processing

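No list median of at least 2 in size changed sign under the alternatives run. Among the lists below that size, the endothelial median went from 1.56 to -0.73 when a mean of Krt8, Afp and Alb below 1 was asked of fibroblasts, and the leukocyte median from -0.23 to 0.11 with a hepatoma mean of at least 2. No paired analysis was possible because no label ties the cells to a group or a replicate. The share of fibroblasts was 1.27% with immune limits of 0.25, 1.55% with limits of 1.0, and 0.237% (127 cells) when a mean of Krt8, Afp and Alb below 1 was also asked for. It ran from 1.06% to 1.54% with each set left out in turn, lowest without set 3, an alternative chosen after seeing the data. That hepatoma limit left 11 fibroblasts in set 1, with 77 higher and 540 lower genes against 340 and 276. Thinning every cell to 1000 UMIs gave 116 higher and 497 lower genes, with fewer UMIs to meet the minimum of 20. The lower count was 146 with a collagen limit of 1.0, 553 with a pseudocount of 0.1 CPM and 100 with 10 CPM. Genes higher in all 6 sets numbered 236 at a difference of 0.25 and 50 at 1. With a set left out, genes higher in all remaining sets numbered between 144 and 154, a count that could not fall because fewer sets had to pass. The contractile share was 15.8% at a limit of 1.0 and 7.69% at 2.0, both chosen after seeing the data, and 9.68% to 12.7% with a set left out. The cause of these shifts was not tested. The medians of the 14 lists of at least 2 in size kept their sign in 182 of 182 values, and 171 were still at least 2 in size. Depth limits the set 1 values: 74 fibroblasts put the floor at 4.88 CPM, and 1326 of the 1990 genes outside the rule had under 20 UMIs in them.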

Other observations

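A few imprinted genes, which are expressed from 1 parental copy, are given here as single genes chosen after their values had been seen, with no statement on imprinted genes as a group. Meg3 was at 594 CPM (534 to 658) against 0.323, with a UMI in 57 of the 74 fibroblasts. Grb10, an adaptor of growth factor receptors, was at 320.5 CPM against 0.942, with a UMI in 50 of them. Cdkn1c, a cell-cycle inhibitor, was at 45.5 CPM against 0.0461, and H19 at 138 against 0.0593, with a UMI in 9 and 16 fibroblasts. T cells had 0.251 CPM of Meg3 and no UMI of H19. Peg3, at 17.9 CPM against 0.0988, and Mest, at 30.9 against 0.599, had 11 and 19 UMIs in fibroblasts, under the minimum of 20, and were not called.

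The interferon-induced chemokine Cxcl9 was called higher in set 1, at 343 CPM against 54.2, but its difference from hepatoma cells ran from -0.36 in set 6 to 0.40 in set 1 on the natural log scale. Penk, the precursor of enkephalins, was at 47.2 CPM in fibroblasts, with a UMI in 11 of 74 cells, and at 73.6 CPM in T cells.

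No value of the 6 sets for the share of fibroblasts, of contractile cells, of Pi16-group cells or of Rgs5 cells stood apart from the others by Dixon's criterion. With 6 values this criterion calls only a wide gap, so it does not show that the sets are even. By counting error, the interval of set 3 for the share of fibroblasts (2.36% to 2.95%) lay above those of all other sets.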
